A study of Homo sapiens with 24 samples.

Results

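The transcriptome of SH-SY5Y cells kept for 24 h with interferon gamma (IFN) was compared with that of untreated cells harvested at the same time. SH-SY5Y is an established human neuroblastoma line of sympathetic neuronal character. The comparison takes 6 of the 24 libraries of the series, 3 labelled IFN and 3 labelled as the untreated 24 h control, and they were chosen by these labels alone. The other groups also hold 3 libraries each: DC with IFN, DC, TEPA with IFN and TEPA at 24 h, and copper and an untreated control at 4 h. DC (Dextran-Catechin) and TEPA are copper chelators, and neither group of the main comparison received one. No IFN dose is labelled, and whether replicates are separate cultures is not stated. The p-values rest on the spread within groups over all 24 libraries of the series, which may be technical.

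Interferon gamma is a cytokine made by T cells and natural killer cells. It binds a receptor of IFNGR1 and IFNGR2 chains, which carry the kinases JAK1 and JAK2. These phosphorylate STAT transcription factors, whose dimers bind gamma-activated sites (GAS) in promoters. IRF1 is an early target and itself a transcription factor, which binds interferon-stimulated response elements (ISRE), as do the other IRF proteins. In tumour cells the response is known for raising antigen presentation and the checkpoint ligand PD-L1.

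Promoters of 5 genes that rose strongly hold letters of both kinds of element. Each run holds the 250 bases before a RefSeq transcription start on GRCh38.p14, written 5′ to 3′ on the gene's strand. Capitals mark the letters TTCNNNGAA (GAS) or GAAANNGAAA and its reverse complement TTTCNNTTTC (ISRE), searched on both strands. IRF1 and ICAM1 are shown for a GAS, ISG15 and TAP1 for an ISRE, and CD274 for both.
IRF1, chr5:132490774-132491023, minus strand: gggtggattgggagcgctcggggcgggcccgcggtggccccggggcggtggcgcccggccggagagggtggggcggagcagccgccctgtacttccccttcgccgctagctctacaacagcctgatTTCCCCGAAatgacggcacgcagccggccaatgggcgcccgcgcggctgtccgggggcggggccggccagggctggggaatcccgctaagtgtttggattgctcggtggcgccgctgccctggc
ICAM1, chr19:10270870-10271119, plus strand: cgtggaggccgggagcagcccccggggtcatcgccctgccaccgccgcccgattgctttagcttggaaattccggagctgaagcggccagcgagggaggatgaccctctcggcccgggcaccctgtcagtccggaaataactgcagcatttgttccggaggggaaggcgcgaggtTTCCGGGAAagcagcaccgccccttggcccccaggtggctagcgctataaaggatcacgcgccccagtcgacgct
CD274, chr9:5450292-5450541, plus strand: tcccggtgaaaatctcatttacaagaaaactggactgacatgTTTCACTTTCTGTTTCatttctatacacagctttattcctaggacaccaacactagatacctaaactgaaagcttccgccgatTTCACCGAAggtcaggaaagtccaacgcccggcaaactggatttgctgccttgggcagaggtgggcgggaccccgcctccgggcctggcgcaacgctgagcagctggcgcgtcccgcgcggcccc
ISG15, chr1:1013247-1013496, plus strand: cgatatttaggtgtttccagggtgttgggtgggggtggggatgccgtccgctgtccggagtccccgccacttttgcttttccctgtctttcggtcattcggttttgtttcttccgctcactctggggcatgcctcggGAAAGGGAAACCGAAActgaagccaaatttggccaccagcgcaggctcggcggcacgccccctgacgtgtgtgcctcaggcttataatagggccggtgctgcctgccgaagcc
TAP1, chr6:32853705-32853954, minus strand: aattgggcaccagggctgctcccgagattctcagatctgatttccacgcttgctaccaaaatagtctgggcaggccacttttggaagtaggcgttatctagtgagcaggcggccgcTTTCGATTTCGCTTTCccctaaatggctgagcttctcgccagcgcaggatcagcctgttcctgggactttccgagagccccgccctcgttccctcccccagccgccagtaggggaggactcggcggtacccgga
The IRF1 promoter held 1 GAS, whose first base lay at -124 (-1 being the base before the start), and the ICAM1 promoter 1 at -75. In CD274 a GAS stood at -125, downstream of a pair of overlapping ISRE matches at -208 and -202. ISG15 and TAP1 had such an overlapping pair too, at -113 and -107 in ISG15 and at -134 and -128 in TAP1. RefSeq lists another start for TAP1, not printed, whose promoter held 1 GAS at -189 and 0 ISRE. A match to these letters is a description of the sequence and not evidence of binding.

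Of the 14654 genes tested, 10804 matched a promoter, among them 101 of the 160 at least 32-fold higher, and the shares cover matched genes alone. The share of promoters holding these letters was highest in the strongest responders. Among 137 promoters of 101 genes that rose at least 32-fold, 28.5% held an ISRE and 15.3% a GAS. Of 103 promoters of genes that rose 8 to 32-fold, 15.5% held an ISRE and 10.7% a GAS. Genes that rose 2 to 8-fold had an ISRE in 5.65% and a GAS in 7.1% of 549 promoters, and genes that rose less than 2-fold in 3.46% and 7.56% of 926. Genes that fell had an ISRE in 1.67% and a GAS in 5.95% of 1497 promoters. The background was 1.99% and 5.16% in 12625 promoters of genes that were tested and not called, and 3.02% and 6.57% in all 35116 RefSeq promoters of this length.

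**Figure D1:**
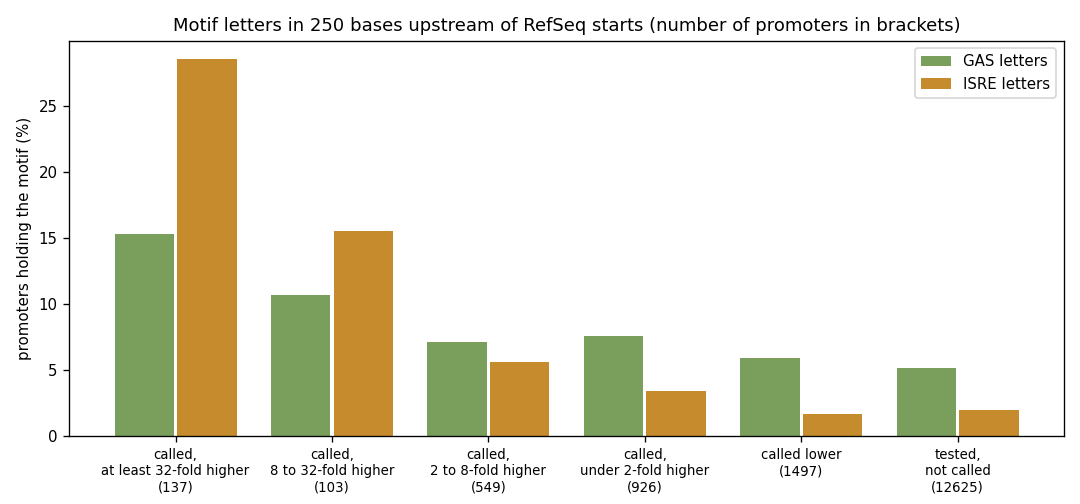
Share of promoters (percent, y axis) that hold GAS letters (green) or ISRE letters (ochre), by how far their gene changed with IFN against control (x axis). The ISRE share is 28.5% in genes at least 32-fold higher and 1.99% in genes tested and not called. Shares are counts of letter matches, with no test.

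The IFN libraries held 29022632, 27664340 and 31986212 counts and the control libraries 30371440, 29583302 and 34922165, so depth differed little between the groups. A trend with GC content did move with the groups. The GC difference of a library, the median log2 level of GC-rich genes relative to the mean of all libraries minus that of GC-poor genes, was 0.593, 0.901 and -0.126 in the IFN libraries, against -0.963, -0.364 and -0.787 in the controls. These values do not overlap. Genes above 60% GC had a median log2 fold change of 0.99, and with each library's GC trend removed it was 0.06. Genes under 40% GC had a median of -0.26, which the correction brought to -0.01. The part of this trend in small changes was not tested, and with these groups it cannot be told apart from the response to IFN. The third IFN library also gave lower values: of 145 genes at least 8-fold higher and at 5 CPM (counts scaled to a library total of 1000000) or more, 135 were lowest there, with a median 0.57 log2 units below the mean of the other 2. Genes named below whose call does not stand in the GC-corrected fit are marked as such. The list counts also hold calls of genes not named that do not stand there.

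**Figure D2:**
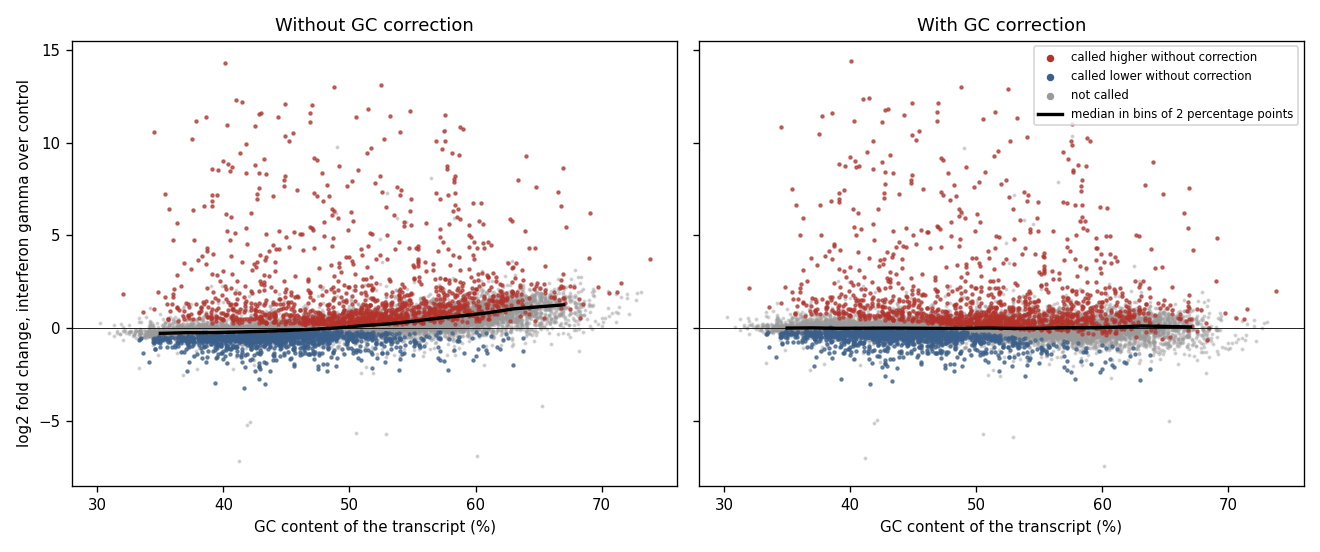
Log2 fold change of IFN over control (y axis) against the GC content of the transcript in percent (x axis), before (left) and after (right) removal of each library's GC trend. Points are genes, red called higher, blue called lower and grey not called, and the black line is the median in GC bins. The line climbs with GC content on the left, to a median of 0.99 above 60% GC, and lies near 0 on the right.

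A large part of the transcriptome differed between the IFN and control libraries, and the rises reached much further than the falls. Of 14654 genes tested with edgeR's quasi-likelihood test, 2761 (18.8%) were called, that is, had a p under 0.05 after Benjamini-Hochberg adjustment, 1471 higher (10%) and 1290 lower (8.8%). At least 2-fold changes numbered 740 higher (5.05%) and 208 lower (1.42%). Among the rises, 160 genes reached 32-fold and another 99 reached 8-fold. Among the falls, 1 gene passed 8-fold, the long non-coding RNA LINC00641, which had 12.7, 16.9 and 14.6 CPM with IFN and 148, 125 and 150 CPM in control (log2 -3.26 ± 0.18 SE, edgeR adjusted p = 3.85e-11). This gene was singled out after its value was seen. In the control libraries, 44 of the genes called higher had 0 counts and a further 45 had 1 to 3 counts in all. With GC correction 4692 genes were called, 2376 higher and 2316 lower. The correction kept 82.3% of the higher calls and 93.3% of the lower calls, called 0 of these genes in the opposite direction, and kept the calls of all 259 rises of at least 8-fold. Without a call there, 62 of the genes called higher and 2 of those called lower had a corrected value of the opposite sign. Without IFN library 1 the count was 1717 (906 higher and 811 lower), without IFN library 2 it was 1707 (904 higher and 803 lower), and without control library 1 it was 1821 (909 higher and 912 lower). Without IFN library 3, 1984 genes were lower. Fewer cells of a state and less RNA per cell cannot be told apart in bulk RNA.

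The induced genes took up a visible share of the RNA. Genes at least 2-fold higher held 6.19, 6.04 and 4.7% of all counts in the IFN libraries, against 0.712, 0.793 and 0.74% in the controls. Genes at least 8-fold higher held 4.08, 3.88 and 3.02% with IFN and 0.115, 0.119 and 0.118% in control. Per kilobase of transcript, WARS, which charges tRNA with tryptophan, ranked 5 of 13730 genes with IFN and 1388 in control. B2M, the light chain of class I molecules, ranked 8 with IFN and 656 in control. The GTPase GBP1, which attacks intracellular pathogens, ranked 28 with IFN and 12269 in control. The change in mean CPM was also largest for WARS, at 5308, 4616 and 3318 CPM with IFN and 130, 146 and 122 CPM in control. These 3 genes were chosen among genes whose groups do not overlap. Over all genes tested, the IFN libraries lay above each control in 29.7% and below each control in 27.4%.

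**Figure D3:**
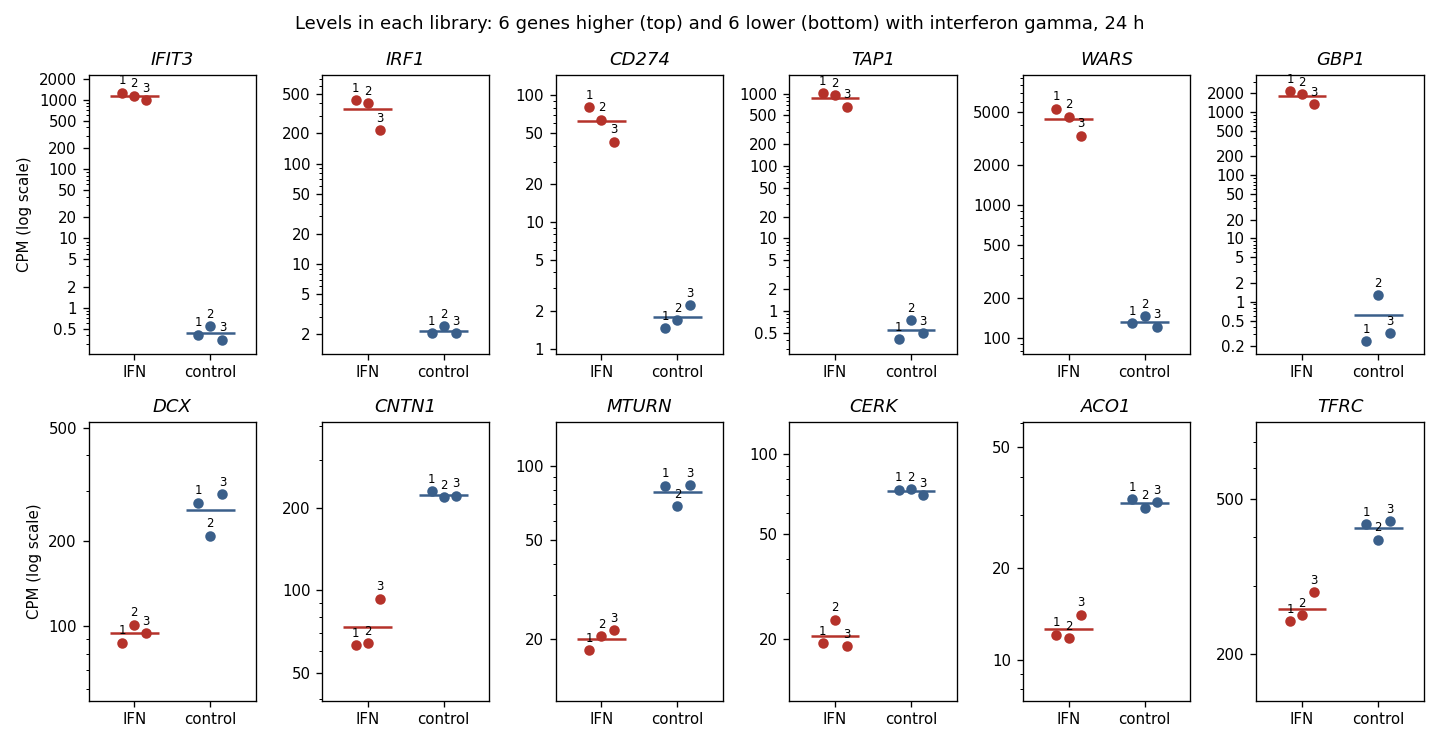
CPM on a log scale (y axis) in each IFN (red) and control (blue) library, for 6 genes that rose (top row) and 6 that fell (bottom row). Numbers are the replicate numbers of the labels and lines the group means. TAP1 lies between 665 and 1013 CPM with IFN, against 0.407 to 0.739 CPM in control. No overlap was a condition for the choice of some of these genes, and 29.7% of all genes tested are higher and 27.4% lower with no overlap.

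Among the receptor and kinase genes, JAK2 and IFNAR2 rose and the others were not called. Of 7 receptor and Janus kinase genes tested, 2 rose and 0 fell, with a median log2 fold change of 0.04 beside 0.01 over all genes. JAK2 had 76, 65.1 and 47.5 CPM with IFN, against 17, 14.7 and 16.5 CPM in control (log2 1.97 ± 0.23 SE, edgeR adjusted p = 3.63e-06). IFNAR2, a chain of the type I interferon receptor, rose by 0.96 ± 0.11. The receptor chains for IFN itself were not called, with log2 fold changes of -0.18 for IFNGR1 and 0.04 for IFNGR2. JAK1 averaged 367 ± 23.6 CPM with IFN and 378 ± 5.46 CPM in control (SD, n = 3 each). No interferon gene could be tested: of 12, IFNG had 0 counts in the 6 libraries and IFNB1 had 3 with IFN and 0 in control.

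Among the signal transducers, 5 of 6 tested STAT genes and 5 of 7 tested IRF genes rose. STAT2, a part of the complex that binds ISREs, had 779, 778 and 623 CPM with IFN, against 59.3, 59.2 and 62.4 CPM in control (log2 3.59 ± 0.10, edgeR adjusted p = 1.04e-15). STAT5A was close to absent, with 60 counts with IFN and 3 in the control libraries. The STAT5B call, a log2 fold change of 0.25, did not stand in the GC-corrected fit. IRF9, the DNA-binding part of the same complex, had 78.2, 82.1 and 60 CPM with IFN and 5.2, 6.01 and 5.18 CPM in control (log2 3.75 ± 0.18). IRF7, an amplifier of type I interferon production, had 479 counts with IFN and 5 in control, and IRF2, a partner and antagonist of IRF1, rose by 1.93 ± 0.13. BATF2, a transcription factor that partners IRF1, had 3707 counts with IFN and 1 over the control libraries.

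A few inhibitors of the pathway rose as well. Of 16 feedback genes tested, 4 rose and 2 fell, beside 10% higher and 8.8% lower over all genes. With GC correction 6 rose and 4 fell, beside 16.2% and 15.8%. SOCS1, which blocks JAK kinases, had 5.36, 3.88 and 1.08 CPM with IFN, against 0.034, 0.101 and 0 CPM in control (log2 6.19 ± 0.76, edgeR adjusted p = 5.76e-06). The IFN values of SOCS1 differ among themselves, library 3 being the lowest, and lie above every control value. SOCS3 averaged 12.2 ± 3.14 CPM with IFN and 2.79 ± 0.126 CPM in control, and USP18, which removes ISG15 and dampens type I signalling, 157 ± 29 and 4.55 ± 0.308 CPM (SD, n = 3 each). PTPN2, a phosphatase that acts on JAK and STAT proteins, was not called, at a log2 fold change of 0.20, and was called with GC correction, at 0.44. The number of feedback genes that fell was 1 without IFN library 2 and 5 without IFN library 3.

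The machinery of class I antigen presentation rose nearly as a whole. Of 16 genes tested, 13 rose and 0 fell, with a median log2 fold change of 5.93. TAP1, a chain of the peptide transporter, lies on chromosome 6 from 32845209 to 32853978 and had 1013, 963 and 665 CPM with IFN, against 0.407, 0.739 and 0.492 CPM in control (log2 10.65 ± 0.27, edgeR adjusted p = 3.51e-16). NLRC5, the class I transactivator, had 239, 275 and 150 CPM with IFN and 0.17, 0.336 and 0.434 CPM in control. B2M went with them, at 2972, 2713 and 2589 CPM with IFN and 198, 175 and 184 CPM in control. ERAP2, an aminopeptidase that trims peptides in the endoplasmic reticulum, averaged 273 ± 11.4 CPM with IFN and 0.754 ± 0.0677 CPM in control (SD, n = 3 each), whereas its relative ERAP1 averaged 184 ± 1.41 CPM with IFN and already 31.9 ± 0.678 CPM in control. The general chaperones of the same pathway were not called: CALR had a log2 fold change of 0.56, CANX of -0.22 and PDIA3 of 0.03. With GC correction PDIA3 was called, at 0.19. HLA heavy chain genes are near-identical in sequence and their counts are uncertain. HLA-E had 386, 392 and 243 CPM with IFN and 3.97, 4.7 and 4.14 CPM in control.

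Class II chain genes and CIITA stayed low with IFN and were near absent in control, while other genes of the list were not. Of 15 genes tested, 13 rose and 0 fell, with a median log2 fold change of 6.30. CIITA, the class II transactivator, had 6.62, 5.61 and 2.48 CPM with IFN and 0 counts in the 3 control libraries, at least 150-fold higher when the control group is set at a floor of 3 counts. The chain genes remained near 1 CPM: HLA-DRA averaged 2.36 ± 1.18 CPM with IFN and HLA-DPA1 1.31 ± 0.856 CPM (SD, n = 3), both with 0 control counts. CD74, the invariant chain, had 12.6, 12.7 and 3.18 CPM with IFN and 1 count in all in control. The lysosomal protease CTSS, which degrades the invariant chain, was higher at 22.5, 23 and 20.8 CPM with IFN and 2.68, 3.02 and 3.56 CPM in control (log2 2.83 ± 0.21, edgeR adjusted p = 3.08e-09). IFI30, a lysosomal thiol reductase, averaged 86.4 CPM with IFN and 1.67 CPM in control, and the protease LGMN 41.3 CPM with IFN and 25.2 CPM in control. RFX5, a class II promoter factor, averaged 146 CPM with IFN and 113 CPM in control. Its call, at a log2 fold change of 0.37, was lost without control library 2 and without IFN library 1, where its adjusted p reached 0.0572.

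Immunoproteasome subunits rose, while most genes of the constitutive proteasome were not called. The catalytic subunits PSMB8, PSMB9 and PSMB10 and the activator subunits PSME1 and PSME2 all rose, 5 of 5, with a median log2 fold change of 4.30. PSMB8 had 169, 165 and 121 CPM with IFN, against 0.577, 1.04 and 0.695 CPM in control. PSME1 averaged 382 ± 37.4 CPM with IFN and 65.3 ± 2.04 CPM in control (SD, n = 3 each). The subunits that these catalytic subunits replace were not called, with log2 fold changes of 0.48 for PSMB5, 0.89 for PSMB6 and 0.20 for PSMB7. Of 26 constitutive proteasome genes tested, 5 rose and 0 fell, beside 10% higher over all genes. Their median log2 fold change was 0.28, beside 0.01 over all genes. With GC correction 8 rose, beside 16.2% over all genes.

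Antiviral effector genes, known also as targets of type I interferon, rose in 35 of 35 tested members, with a median log2 fold change of 7.57. Members that block translation of viral RNA were among them: IFIT3 had 1268, 1148 and 978 CPM with IFN and 0.407, 0.537 and 0.347 CPM in control (log2 11.36 ± 0.31, edgeR adjusted p = 9.13e-16). IFI44L had 947, 920 and 842 CPM with IFN and 0.34, 0.47 and 0.347 CPM in control. ADAR, the double-stranded RNA editing enzyme, was abundant before treatment and showed one of the smaller folds, at 2258, 2185 and 1980 CPM with IFN and 676, 680 and 676 CPM in control (log2 1.66 ± 0.06). The rule that chose these 3 genes required groups that do not overlap. Some family members known as strong interferon targets stayed low: ISG15, the ubiquitin-like modifier, had 90 counts over the 3 IFN libraries, 1.04 ± 0.503 CPM (SD, n = 3), and 0 in control, at least 32-fold higher against the floor of 3 counts.

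The genes of enzymes that attach ISG15 had much higher CPM than ISG15 itself, without regard to length or GC content. The GC content was 63.4% for ISG15, 57.2% for UBE2L6, 58.3% for UBA7 and 44.1% for HERC5. Its part in these levels was not tested. All 6 tested conjugation genes rose, with a median log2 fold change of 5.01. The E2 enzyme gene UBE2L6 had 577, 569 and 425 CPM with IFN, against 17.1, 20.7 and 14.6 CPM in control. The E1 gene UBA7 averaged 50.9 ± 18.2 CPM with IFN and 0.191 ± 0.0204 CPM in control, and the ligase gene HERC5 246 ± 14.1 and 61 ± 3.23 CPM (SD, n = 3 each).

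Sensors of foreign nucleic acid rose in 9 of 12 tested genes, with a median log2 fold change of 4.47. DDX58, which encodes the RNA sensor RIG-I, had 542, 495 and 445 CPM with IFN and 17.3, 18.4 and 18.8 CPM in control (log2 4.76 ± 0.19, edgeR adjusted p = 1.18e-13). IFIH1, the sensor MDA5, had 134, 114 and 104 CPM with IFN and 0.102, 0.403 and 0.116 CPM in control. The nuclear DNA sensor IFI16 had 8392 counts with IFN and 3 over the control libraries. Downstream, the adaptor MAVS and the kinase TBK1 were not called, each at a log2 fold change of 0.12, and TBK1 was called at 0.35 with GC correction.

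Several smaller families rose together. Guanylate-binding proteins, GTPases against intracellular pathogens, rose in 6 of 6 tested members with a median log2 fold change of 6.30, led by GBP1 at 2196, 1966 and 1351 CPM with IFN and 0.238, 1.28 and 0.319 CPM in control (log2 11.57 ± 0.46, edgeR adjusted p = 1.52e-13). GBP5 varied most among the IFN libraries, at 52.2, 32.7 and 13.8 CPM, and had 0.17, 0.134 and 0.347 CPM in control. The apolipoprotein L family, of which APOL1 lyses trypanosomes, rose in 5 of 5 with a median of 10.96. APOL6 had 833, 782 and 700 CPM with IFN and 0.272, 0.571 and 0.319 CPM in control, whereas APOL2 had 255, 246 and 158 CPM with IFN and already 6.18, 7.05 and 6.75 CPM in control. Components of PML nuclear bodies rose in 4 of 4 tested genes, and SP100 had 149, 131 and 116 CPM with IFN and 6 counts in all in control. TRIM ubiquitin ligases rose in 10 of 12, with a median of 2.65. TRIM22, an antiviral member, averaged 207 ± 27.9 CPM with IFN and 0.212 ± 0.102 CPM in control (SD, n = 3 each). Of 12 tested genes for poly-ADP-ribose polymerases, with their partner DTX3L among them, 9 rose, with a median of 0.53. DTX3L and PARP9, which form an antiviral complex, rose by 4.25 ± 0.14 and 3.84 ± 0.13, and PARP14 by 3.45 ± 0.41. The calls of PARP1, PARP6 and PARP11 were lost without 1 or more of the libraries, and the lowest count of rises was 6.

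Secreted signals to lymphocytes were near 0 in control and rose. Of 7 chemokine genes tested, 5 rose and 0 fell, with a median log2 fold change of 4.45. CXCL10, a ligand of CXCR3, a chemokine receptor on T cells, lies on chromosome 4 from 76021117 to 76023497. It had 43.5, 26.3 and 20.4 CPM with IFN, against 0, 0.0336 and 0.029 CPM in control. CXCL11, another CXCR3 ligand, had 56.6, 35 and 23.8 CPM with IFN and 2 counts in all in control. CX3CL1, a membrane-bound chemokine, had 75.2, 72.5 and 35.3 CPM with IFN and 2.51, 3.12 and 2.75 CPM in control (log2 4.45 ± 0.41, edgeR adjusted p = 1.17e-07). CCL2, a monocyte attractant, was not called, at 4.1 ± 0.122 CPM with IFN and 3.4 ± 0.494 CPM in control (SD, n = 3 each), and the neutrophil attractant CXCL8 had 0 counts in the 6 libraries.

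Among 13 tested cytokine and TNF family genes, 9 rose and 1 fell. CSF1, a macrophage growth factor, had 46, 45.7 and 27.4 CPM with IFN and 0.815, 0.705 and 0.956 CPM in control (log2 5.58 ± 0.28, edgeR adjusted p = 6.11e-12). IL15, which sustains natural killer cells, had 15.3, 13.7 and 15.4 CPM with IFN and 0.509, 1.04 and 0.695 CPM in control. IL18BP, a decoy that binds interleukin 18, averaged 90.2 ± 23.1 CPM with IFN and 8.06 ± 1.26 CPM in control (SD, n = 3 each). IL6 had 0 counts in the 6 libraries. TNFSF4, the member that fell, had a log2 fold change of -0.68 and lost its call in 5 of the 6 fits that each left out a library, IFN library 3 being the exception, at adjusted p-values of up to 0.187.

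PD-L1 was 1 of several checkpoint ligands that rose. Of 12 tested, 8 rose and 1 fell, with a median log2 fold change of 1.74. CD274, the PD-L1 gene on chromosome 9 from 5450503 to 5470566, had 80.7, 64.2 and 43 CPM with IFN, against 1.46, 1.68 and 2.2 CPM in control (edgeR adjusted p = 5.31e-10). Its GC content is 40.9%, and the GC-corrected log2 fold change was 5.35 beside 5.13 without correction. PDCD1LG2, the PD-L2 gene, was lower, at 1.54, 2.16 and 1.78 CPM with IFN and 0.0679, 0.0672 and 0.0869 CPM in control. CD47, the signal that restrains phagocytes, was abundant in both groups, at 274, 241 and 247 CPM with IFN and 106, 100 and 108 CPM in control (log2 1.28 ± 0.18, edgeR adjusted p = 2.61e-05). CD200, an inhibitory ligand for myeloid cells, fell to 27.3, 23.5 and 24.2 CPM with IFN, against 44.1, 35 and 41.3 CPM in control (log2 -0.68 ± 0.14, edgeR adjusted p = 0.0023). The CD276 call, at a log2 fold change of 0.51, did not stand with GC correction, where the value was -0.25 and the adjusted p 0.443.

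Other surface genes responded unevenly. Butyrophilins, some of which present phosphoantigens to gamma-delta T cells, rose in 5 of 6 tested members; BTN3A2 had 212, 213 and 191 CPM with IFN and 48.5, 47.1 and 49 CPM in control. Of 2 testable ligands of the activating receptor NKG2D, MICB rose, with 88 counts with IFN and 0 in control, at least 31.3-fold higher against the floor. Of 10 adhesion genes tested, 2 rose and 1 fell, beside 10% higher and 8.8% lower over all genes. ICAM1, which binds leukocyte integrins, had 45, 37.3 and 20.4 CPM with IFN and 0.136, 0.269 and 0.232 CPM in control (log2 7.30 ± 0.42, edgeR adjusted p = 6.82e-11). NCAM1, the neural adhesion molecule, fell to 116, 121 and 124 CPM with IFN, against 168, 170 and 169 CPM in control (log2 -0.49 ± 0.06, edgeR adjusted p = 2.43e-06). Without control library 2, 2 adhesion genes fell.

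Genes of cell death rose in 15 of 27 tested members and fell in 2, or in 1 without IFN library 2, with a median log2 fold change of 0.56. Inflammatory caspases stood out: CASP1 had 24.3, 21 and 16.7 CPM with IFN and 0 counts in control, and CASP4 had 12.4, 12.3 and 12.8 CPM with IFN and 0.679, 0.705 and 1.1 CPM in control. CASP8, the initiator caspase that neuroblastoma lines often lack, had 8.58, 8.8 and 8.17 CPM with IFN and 0.985, 0.974 and 0.666 CPM in control (log2 3.28 ± 0.27, edgeR adjusted p = 1.98e-08). MLKL, the pore-forming effector of necroptosis, averaged 63.8 ± 10.3 CPM with IFN and 1.48 ± 0.305 CPM in control, and the death receptor FAS 13.9 ± 2.72 and 1.82 ± 0.165 CPM (SD, n = 3 each). BCL2, the survival gene, fell by 0.74, whereas BCL2L1, another survival gene, rose by 0.90. The DAPK1 call, at 0.29, did not stand with GC correction.

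Complement genes rose in 10 of 13 tested members and fell in 2, with a median log2 fold change of 5.57. CFB, factor B of the alternative pathway, had 14.5, 13.2 and 6.64 CPM with IFN and 0 counts in control, at least 352-fold higher against the floor. The C1 proteases followed, with C1S at 43, 39.1 and 34.4 CPM with IFN and 0.373, 0.403 and 0.232 CPM in control, and so did their inhibitor SERPING1, at 531, 518 and 340 CPM with IFN and 11, 11.6 and 11.5 CPM in control. C4A and C4B are near-identical copies whose counts are uncertain. In the other direction, C7 of the terminal pathway, outside the list and among the genes with the largest fall in CPM, fell to 445, 532 and 387 CPM with IFN, against 1043, 724 and 1106 CPM in control (log2 -1.07 ± 0.22, edgeR adjusted p = 0.00194). The 2 falls on the list were C5 and CD59; C5 lost its call without IFN library 2 and CD59 without IFN library 1, at adjusted p-values of 0.0565 and 0.0558.

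Tryptophan metabolism changed at 2 points, and 5 NF-kB genes rose. IDO1, which starts the breakdown of tryptophan, had 243, 178 and 90.2 CPM with IFN and 3 counts in all in control, a ratio of 5240 with a 95% counting interval of 1790 to 25400. WARS and IDO1 were the 2 of 8 tested genes of this list that rose, and 0 fell. Of 16 NF-kB subunits and targets tested, 5 rose and 0 fell, beside 10% higher over all genes, with a median log2 fold change of 0.42. With GC correction 6 rose, beside 16.2% higher over all genes. NFKBIA, the inhibitor that NF-kB induces, was not called, at 19.5 ± 2.84 CPM with IFN and 16.2 ± 0.838 CPM in control (SD, n = 3 each). Leaving out control library 2, control library 3 or IFN library 1 gave 2 rises, and leaving out control library 1 or IFN library 2 gave 3. BIRC3, an inhibitor of apoptosis at 1.98 ± 0.187 CPM with IFN and 0.513 ± 0.0227 CPM in control, kept its call in each of these fits.

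**Figure D4:**
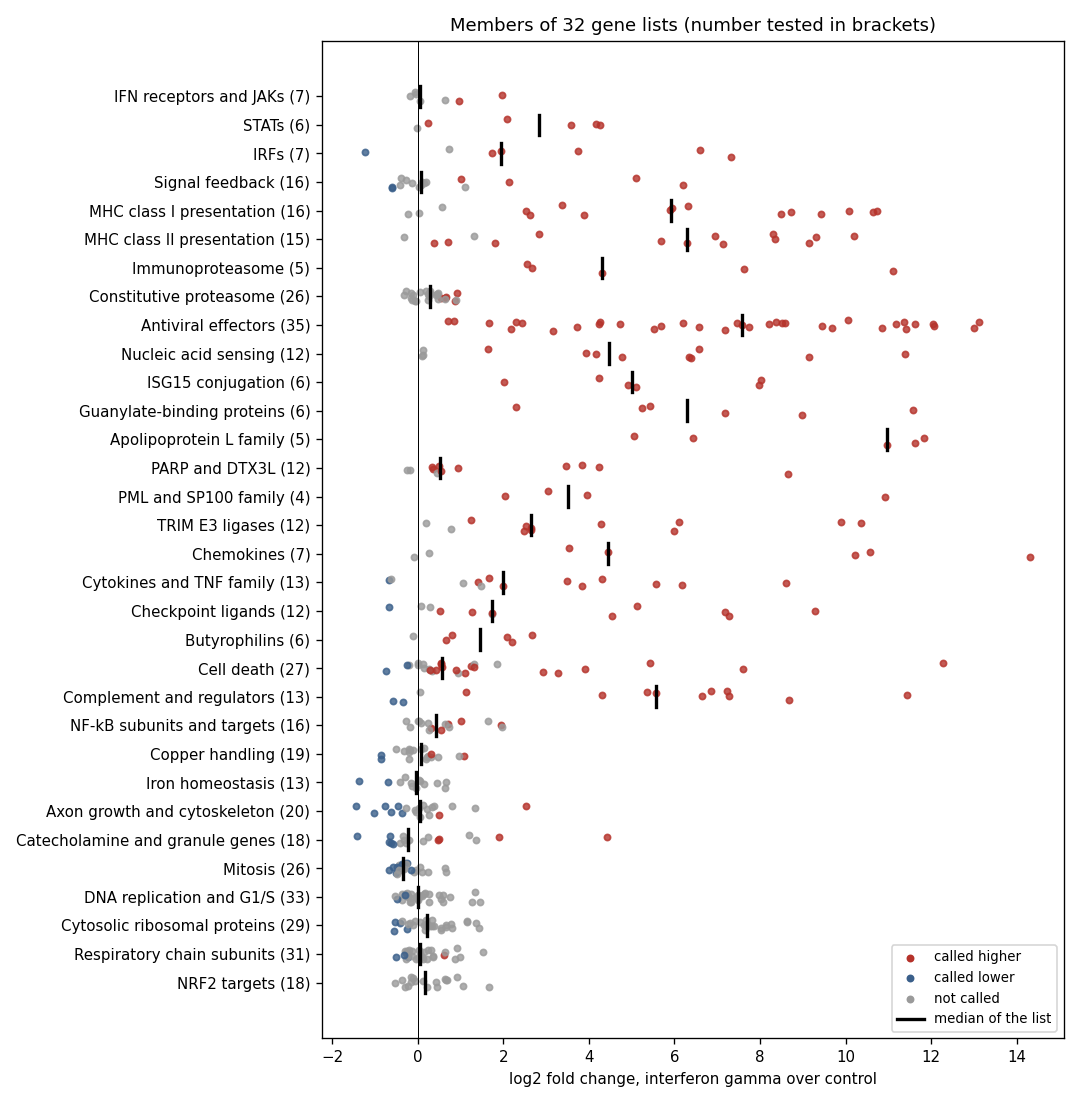
Log2 fold change of IFN over control (x axis) for the tested members of 32 gene lists (y axis), with members called higher in red, called lower in blue and not called in grey, and the list median as a bar. Antiviral effectors have a median of 7.57 and class I genes of 5.93, whereas mitosis genes have a median of -0.35 and copper genes of 0.08.

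Copper genes, central to this series, were called about as often as genes in general. Of 19 tested, 2 rose and 2 fell, beside 10% higher and 8.8% lower over all genes, with a median log2 fold change of 0.08. With GC correction 5 rose and 4 fell, beside 16.2% higher and 15.8% lower over all genes. SLC31A1, the main copper importer, had 127, 121 and 127 CPM with IFN, against 122, 117 and 116 CPM in control, and was not called (log2 0.08 ± 0.09, edgeR adjusted p = 0.492), whereas the GC-corrected fit gave 0.24 and an adjusted p of 7e-05. APP, the copper-binding amyloid precursor, rose to 1008, 992 and 871 CPM with IFN, against 778, 781 and 751 CPM in control (log2 0.31 ± 0.07, edgeR adjusted p = 0.00248). LOX, a copper-dependent matrix enzyme, fell to 10.2, 10.3 and 14.4 CPM with IFN, against 21.8, 20 and 21.5 CPM in control. The other calls of the list, ATOX1 and STEAP1, were lost in 4 and 3 of the 6 fits that left out a library, at adjusted p-values of up to 0.0976 and 0.104. Without control library 1, control library 3, IFN library 1 or IFN library 2, 1 copper gene rose, and without IFN library 1 or IFN library 2, 1 fell.

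Zinc and iron genes included some clearer changes. MT2A, a metallothionein whose reads may be shared with near-identical copies, had 9.59, 10.1 and 4.8 CPM with IFN and 0.204, 0.403 and 0.347 CPM in control (log2 4.66 ± 0.54, edgeR adjusted p = 3.01e-06). The other metallothioneins tested, MT1E, MT1F, MT1M and MT1X, were not called. MT1X, at a log2 fold change of 2.05, was called with GC correction, at 1.75. Over the 11 tested metallothionein and zinc genes, 3 rose and 2 fell, or 5 and 3 with GC correction, and 1 fell without control library 1, control library 3, IFN library 1 or IFN library 2. ACO1, which as an apoprotein regulates iron transcripts, fell to 12.1, 11.8 and 14.1 CPM with IFN, against 33.7, 31.6 and 32.9 CPM in control (log2 -1.37 ± 0.09, edgeR adjusted p = 1.12e-09). TFRC, the transferrin receptor, fell to 243, 252 and 288 CPM with IFN, against 432, 393 and 440 CPM in control (log2 -0.69 ± 0.16, edgeR adjusted p = 0.0051). These were the 2 of 13 iron genes that were called. No iron gene rose, and with GC correction 2 rose and 3 fell. For both lists the shares over all genes were 10% higher and 8.8% lower, or 16.2% and 15.8% with GC correction. The ferritin heavy chain FTH1 was not called, at a log2 fold change of -0.16, and was called at -0.23 with GC correction.

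The genes with the deepest falls were mostly of low or moderate level. The scavenger receptor MEGF10, which clears dying cells in brain, had 0.105, 0.108 and 0.477 CPM with IFN and 1.56, 2.15 and 2 CPM in control (log2 -3.00 ± 0.39, edgeR adjusted p = 1.1e-05). IL6R, the interleukin 6 receptor, fell by 2.17 on the log2 scale, with 40 counts with IFN and 195 in control. CLSTN2, a synaptic calsyntenin, had 2.66, 2.69 and 3.34 CPM with IFN and 10.7, 13 and 12.4 CPM in control. Higher in level were MTURN, a regulator of neural differentiation first described in frogs, with 18.1, 20.5 and 21.6 CPM with IFN and 83.2, 68.8 and 83.7 CPM in control, and CERK, ceramide kinase, with 19.3, 23.7 and 18.8 CPM with IFN and 73.2, 73.4 and 69.9 CPM in control. These 5 genes were chosen among genes whose groups do not overlap, so that the separation of their libraries is no result. Among the other 10 genes chosen for their fold, from GGTA1P, a pseudogene, at -2.34 to NAP1L3 at -1.68, the call of SOHLH2 was lost in 4 of the 6 fits that left out a library, at adjusted p-values of up to 0.117.

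The 10 falls largest in mean CPM were in abundant genes, which a choice by CPM favours. Among them C7, given above, fell by 1.07 on the log2 scale, and the others by 0.24 to 0.72. RGS5, a regulator of G protein signalling and the gene with the largest fall in CPM, had 7366, 7009 and 7918 CPM with IFN, against 13210, 10770 and 12620 CPM in control (log2 -0.72 ± 0.17, edgeR adjusted p = 0.00564). STMN1, a microtubule destabiliser, had 1198, 1096 and 1412 CPM with IFN and 1903, 1727 and 1796 CPM in control. Of the 10 genes chosen for their fall in CPM, EEF1A1, CALM2, NUCKS1, YWHAZ and CENPF lost the call in 2 to 5 of the 6 fits that left out a library, and none of the 10 lost it with GC correction.

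Among the called genes of neuronal structure, falls outnumbered rises, but the median log2 fold change of the list was 0.04. Of 20 genes of axon growth and cytoskeleton tested, 6 fell and 2 rose, beside a background of 8.8% lower and 10% higher over all genes. With GC correction 9 fell and 3 rose, beside 15.8% and 16.2%, and the median was -0.16. DCX, a microtubule protein of migrating neurons, had 87.7, 101 and 94.7 CPM with IFN, against 272, 208 and 292 CPM in control (log2 -1.45 ± 0.17, edgeR adjusted p = 4.74e-06). The neurofilament genes NEFM and NEFL fell by 1.01 and 0.76 on the log2 scale, and the growth cone gene GAP43 by 0.37. CNTN1, an axonal adhesion molecule outside the list, had 63.1, 64.2 and 93.4 CPM with IFN and 231, 220 and 223 CPM in control. In the other direction PRPH, the peripheral neuron filament, rose by 2.52. Of 17 ion channel genes tested, KCNQ3, a subunit of the M current, was the 1 that fell, to 5.18, 5.97 and 5.53 CPM with IFN, against 16.6, 13.4 and 20.4 CPM in control, and 2 rose; without control library 1, 2 channels fell, and without control library 2, 1 rose.

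The catecholamine list split. Of 18 tested, 4 rose and 5 fell, beside 10% higher and 8.8% lower over all genes. With GC correction 1 rose and 7 fell, beside 16.2% and 15.8%. MAOB, which oxidises amines, was the rise that stood in both fits, with 47.7, 37.7 and 29.5 CPM with IFN and 1.63, 1.54 and 2.17 CPM in control (log2 4.42 ± 0.29, edgeR adjusted p = 5.86e-10). Its relative MAOA fell to 32, 35 and 42.6 CPM with IFN, against 53.4, 64.1 and 53.6 CPM in control. SLC18A2, the vesicular monoamine transporter, fell by 1.41 ± 0.20 and DDC, which makes dopamine from its precursor, by 0.67 ± 0.08. The rises of CHGB, VGF and CYB561 did not stand with GC correction, and without control library 1, control library 3 or IFN library 1 the list had 2 rises. TH, the first enzyme of catecholamine synthesis and a usual neuroblastoma marker, was near absent, with 1 count in the IFN and 2 in the control libraries.

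Among transcription factors of neuroblastoma identity, most adrenergic factors were not called. HAND2, a factor of sympathetic neuron development, had 407, 400 and 332 CPM with IFN, against 354, 329 and 351 CPM in control, and was not called, nor were GATA3 or ISL1. With GC correction the log2 fold change of HAND2 turned to -0.47 and that of GATA3 to -0.19, neither called. MYCN was low in both groups and not called, at 4.34 ± 1.48 CPM with IFN and 3.93 ± 0.415 CPM in control (SD, n = 3 each). Of 19 adrenergic factors tested, 4 fell and 1 rose, beside 8.8% lower and 10% higher over all genes. LMO3 fell by 1.31 ± 0.27, while the calls of SATB1 and KLF7 did not stand with GC correction. The rise of TBX2 was lost in 5 of the 6 fits that left out a library. Without control library 3, 2 of these factors fell. Of 16 genes of the mesenchymal state tested, 6 rose and 0 fell, beside 10% higher over all genes, with a median log2 fold change of 0.20. RUNX1 rose by 5.30 but stayed low, with 160 counts with IFN and 4 in control. The 6 also hold FN1, a matrix protein, and IRF2, counted above, while YAP1 and WWTR1 were not called. With GC correction 7 genes of this list rose and 1 fell, beside 16.2% and 15.8%, with a median of 0.08.

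Matrix and growth factor receptor genes showed individual changes. FN1, fibronectin, had 1115, 1198 and 1077 CPM with IFN, against 276, 278 and 309 CPM in control (log2 1.97 ± 0.08, edgeR adjusted p = 2.6e-13). TNC, tenascin, had 195, 197 and 187 CPM with IFN and 32.4, 64.1 and 36.7 CPM in control. TIMP3, a metalloproteinase inhibitor held in the matrix, fell to 23.9, 20.1 and 31.7 CPM with IFN, against 65.2, 66.7 and 59.2 CPM in control. Over the 23 matrix genes tested, 6 rose and 2 fell, and with GC correction 9 rose and 2 fell. Among 18 growth factor receptors, 4 rose and 2 fell, and with GC correction 5 rose and 5 fell. Over all genes tested, 10% rose and 8.8% fell, or 16.2% and 15.8% with GC correction. RET rose by 0.79 ± 0.08 and KIT fell by 1.10 ± 0.18. GFRA3, the other fall, lost its call without control library 1 and without IFN library 3, where 1 receptor fell.

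Genes of mitosis leaned lower, by small amounts. Of 26 tested, 9 fell and 0 rose, beside 8.8% lower over all genes, with a median log2 fold change of -0.35 beside 0.01. With GC correction 20 fell, beside 15.8% lower over all genes. The count depended on the libraries: 3 fell without IFN library 1, 4 without IFN library 2, 4 without control library 1 and 17 without IFN library 3. MKI67, a proliferation marker, was not called, at 887 ± 33.8 CPM with IFN and 972 ± 62.6 CPM in control (SD, n = 3 each). Of 33 genes of DNA replication and entry into S phase, 2 fell and 0 rose, and with GC correction 6 fell and 1 rose; no member fell without control library 1, IFN library 1 or IFN library 2, 1 did without control library 2, and 11 did without IFN library 3.

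Stress and metabolic lists gave mixed or weak results. They stand beside 10% higher and 8.8% lower over all genes, or 16.2% and 15.8% with GC correction. Of 21 targets of ATF4, the factor of the amino acid and stress response, 12 rose and 0 fell, with a median log2 fold change of 0.91, and 10 rose with GC correction. ATF3 had 44.5, 33.1 and 26.8 CPM with IFN and 10.9, 7.82 and 6.69 CPM in control (log2 2.04 ± 0.22, edgeR adjusted p = 8.04e-07), and DDIT3 averaged 21.3 ± 8.79 CPM with IFN and 5.81 ± 0.82 CPM in control (SD, n = 3 each). The calls of ATF4 itself and of TRIB3 did not stand with GC correction. Of 26 p53 targets, 8 rose and 3 fell, or 6 and 4 with GC correction. The rises numbered 4 without control library 1, IFN library 1 or IFN library 2, and 5 without control library 3. CDKN1A and MDM2 were not called, at 0.52 and -0.26. By edgeR 0 of 18 NRF2 targets were called, and 6 had an unadjusted p under 0.05. Among them 1 was called with DESeq2 and 0 with limma-voom, while after GC correction 3 rose and 2 fell. Of 15 fatty acid synthesis genes edgeR called 0, and 5 had an unadjusted p under 0.05. Here the call count was 2 with DESeq2 and 0 with limma-voom, and 4 rose after GC correction. The 29 ribosomal protein genes had 4 falls, with 2 without control library 1 or IFN library 2, and 4 falls and 1 rise with GC correction. The 31 respiratory chain genes had 3 falls and 1 rise, or 5 and 4 with GC correction. Their falls numbered 1 without control library 1, IFN library 1 or IFN library 2 and 6 without IFN library 3.

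In the remaining lists, the share called lay on both sides of the 18.8% over all genes. By direction, 10% of all genes were higher and 8.8% lower, or 16.2% and 15.8% with GC correction. Of 20 genes of synaptic vesicle fusion, 4 rose and 0 fell, and with GC correction 2 rose and 3 fell; leaving out a library other than IFN library 3 gave 1 or 2 rises. Of 23 MYC and ribosome biogenesis genes, 3 rose and 1 fell, and with GC correction 6 rose; 1 rose without control library 1, control library 3, IFN library 1 or IFN library 2. Of 24 hypoxia and glycolysis genes, 6 rose, or 8 with GC correction and 4 without control library 3 or IFN library 1, and the 1 fall was lost without each of 4 libraries. Of 22 autophagy and lysosome genes 3 rose and 2 fell, or 4 fell with GC correction. Of 17 chaperones of the endoplasmic reticulum 2 rose, or 5 with GC correction and 1 without control library 3 or IFN library 1. Of 24 genes of cholesterol synthesis, 1 rose and 1 fell, or 4 and 1 with GC correction, and the rise was lost without control library 1 or IFN library 2.

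Most markers of neuroblastoma cells were present in both groups, TH being the exception, with a summed level of 2990 to 3173 CPM with IFN and 2950 to 3114 CPM in control, whereas leukocyte and epithelial transcripts were near 0. Of 12 neuroblastoma markers tested, CHGB and ELAVL4 rose and STMN2 and GAP43 fell, and the rise of CHGB did not stand with GC correction. These counts, and those of the marker lists below, stand beside 10% called higher and 8.8% called lower over all genes tested. Of 14 leukocyte genes, 1 had counts enough for testing, PTPRC (CD45), at 0.126 ± 0.0269 CPM with IFN and 0.292 ± 0.154 CPM in control (SD, n = 3 each), and it was not called. CD3D, ITGAM and TYROBP had 0 counts in the 6 libraries. The summed level of the leukocyte list was 0.175 to 0.395 CPM with IFN and 0.272 to 0.739 CPM in control. The summed level of the 6 epithelial markers was 0.318 to 0.97 CPM with IFN and 0.509 to 0.637 CPM in control. Of 12 fibroblast and endothelium markers, 9 were tested, and 2 rose (PDGFRB and ACTA2) and 1 fell (COL1A2). PDGFRB lost its call without control library 1, IFN library 1 or IFN library 2, at adjusted p-values of up to 0.0834, and COL1A2 with GC correction. Their summed level was 520 to 615 CPM with IFN and 432 to 561 CPM in control, ranges that overlap; their part in the results was not tested. ACTA2 lies on the strand opposite FAS and overlaps it, so with the strand setting not known its reads cannot be told from those of FAS. Of 8 Schwann cell markers, 4 were tested and 1, PMP22, rose by 0.23, a call lost in each of the 6 fits that left out a library.

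The same contrast was available in the presence of each chelator, with libraries that the main comparison does not use. Over all 14654 genes, the direction was the same in 85.3% with DC and 88.5% with TEPA. The GC difference moved the same way in each pair: it averaged 0.0001 ± 0.323 in DC with IFN and -0.438 ± 0.614 in DC, and 0.423 ± 0.391 in TEPA with IFN and -0.392 ± 0.891 in TEPA (SD, n = 3 each). Its part in the shared direction was not tested. Of the 1471 genes that rose, 99.5% had the same direction in DC with IFN against DC, where 9.82% of all genes were called and 6.16% called higher, and 57.0% of the 1471 were called there. In TEPA with IFN against TEPA, where 14.2% of all genes were called and 7.28% called higher, 99.6% of the 1471 had the same direction and 63.5% were called. Conversely, 92.9% of the 902 rises with DC and 87.5% of the 1067 rises with TEPA were among the 1471. Of the 259 genes at least 8-fold higher, 245 were called higher with DC and 248 with TEPA. The 1290 falls had the same direction in 99.6% with DC, where 37.8% were called beside 3.66% of all genes, and in 99.7% with TEPA, where 60.4% were called beside 6.89%. They hold 90.7% of the 537 falls with DC and 77.2% of the 1009 with TEPA.

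For the marker genes, the size of the effect was close in the 3 pairs. The log2 fold change of CD274 was 5.11 with DC, 5.29 with TEPA and 5.13 without a chelator. For IRF1, on chromosome 5 from 132481609 to 132490798, it was 7.02, 7.31 and 7.32, and for TAP1 10.27, 10.03 and 10.65. For CD274, the effect without a chelator minus that with DC was 0.01 ± 0.44 SE, and minus that with TEPA -0.17 ± 0.43 SE, standard errors that leave the difference imprecise. Tests of the difference itself over the 14654 genes called 0 genes with DC and 0 with TEPA in edgeR, where 142 and 205 had an unadjusted p under 0.05. DESeq2 called 2 genes with DC, PTCD1 and SERF1A, and 0 with TEPA, and limma-voom called 0 in both. With GC correction 0 genes differed with DC and 6 with TEPA, among them SAMD9, IFRD1, NFYA, SLC39A10 and SLC7A11, named after their values were seen. IFRD1 had a log2 fold change of 0.17 without a chelator and 1.29 with TEPA.

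**Figure D5:**
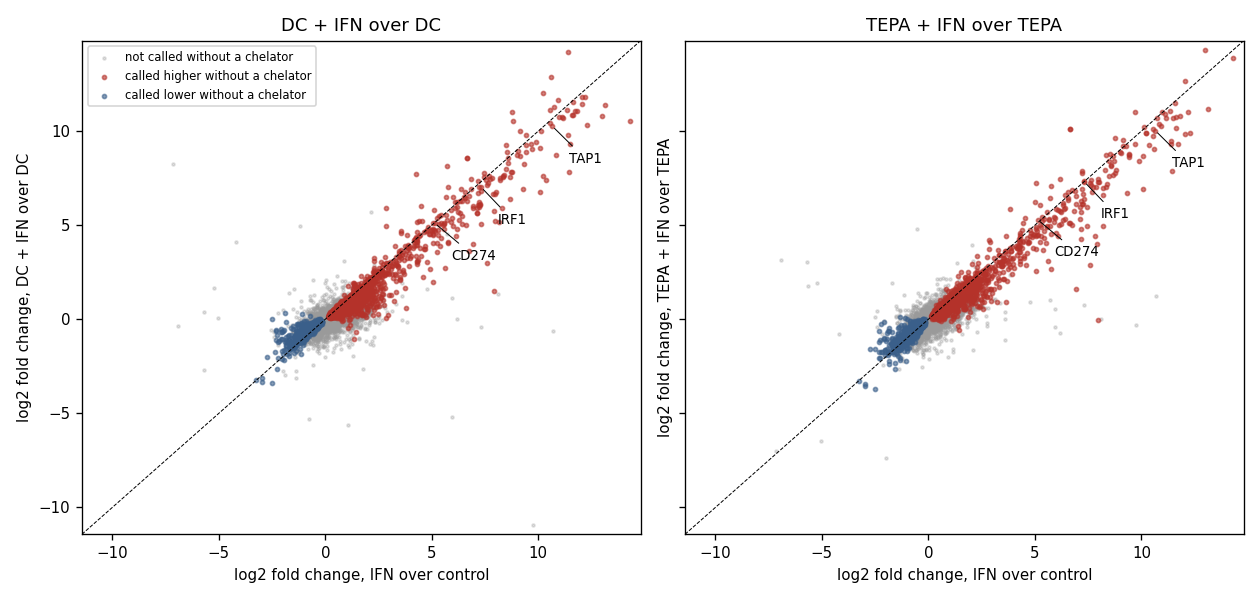
Log2 fold change of DC with IFN over DC (left) and of TEPA with IFN over TEPA (right), both on the y axis, against that of IFN over control (x axis). Points are genes, red called higher and blue called lower without a chelator and grey not called, and the dashed line marks equal values. CD274 lies at 5.13 on the x axis, and at 5.11 with DC and 5.29 with TEPA.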

How the data were processed

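Poly(A) RNA of SH-SY5Y cells was measured by RNA-seq in 24 libraries, 8 groups of 3. RNeasy kits and a TruSeq stranded mRNA library kit were used, per the labels' protocols. Per the submitters' processing notes, STAR 2.5a, RSEM 1.2.31 and hg38 were used. The annotation, strand setting and filters are not given in the sources used here. The deposited values are whole-number counts per gene symbol, 26485 genes, of which 6378 were at 0 in each library, and the per-sample lists of 24 libraries equal the table.

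The counts were fitted with edgeR 4.0.16 in R 4.3.3, with 1 mean for each group over the 24 libraries (TMM scaling, filterByExpr with a minimum count of 10, 16 residual degrees of freedom, common biological coefficient of variation 0.207), and a quasi-likelihood test with Benjamini-Hochberg adjustment over 14654 genes. An adjusted p under 0.05 is a call. Fold changes are IFN over control, and ± after a log2 fold change is the standard error. CPM are counts per 1000000 of the TMM-scaled library total. Library totals ran from 24569980 to 35372442, and intervals and floors of 3 counts cover counting error only. On simulated counts of 14463 genes for IFN against control, the test recovered 75% of 100 genes changed by 1 log2 unit. It recovered 97% of 100 changed by 2, with 8 false calls. The simulated counts held no GC trend, no replicate effect and no low IFN library. The 8 therefore do not measure false calls in the real libraries. GC content and coordinates come from GENCODE 29 (GRCh38), which matched 90.2% of the symbols and 93.7% of the genes tested. The GC correction removed a loess trend (span 0.5) of log2 level on GC content from each library. It entered edgeR as an offset. Promoter sequences are from RefSeq on GRCh38.p14.

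The comparison, the gene lists and the rule for named genes were chosen with earlier results of these data known. Among genes called, at a mean of 1 CPM or more, with no overlap between the groups and with no LOC, LINC, MIR, SNOR, antisense or intronic transcript symbol, the rule takes the 15 largest rises and falls in log2 fold change and the 10 largest in CPM. With no condition on level or overlap it also takes up to 6 called members of each list (or 2 members where none is called) and a few interferon genes. Some genes that the rule takes are not reported here. Other genes in the text were chosen after their values were seen. Counts of HLA, C4A and C4B, metallothionein, guanylate-binding protein and other near-identical genes are uncertain, as are genes that overlap another on either strand. Alternatives were DESeq2 1.42.0, limma-voom (limma 3.58.1), other scaling and filters, the 6 libraries alone, a replicate block, GC correction and the omission of each library.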

Additional observations from a re-analysis of the deposited data

How the results depend on the processing

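Of the 259 rises of at least 8-fold, none turned its direction under an alternative; leaving out 1 library kept 255 to 259 calls, limma-voom 258, the 6 libraries alone tested and called 240, and each other alternative kept 259. The count of small changes moved more. Beside 2761 calls, the count was 2800 with DESeq2 size factors, 2404 with no filter, 2699 with limma-voom and 3635 with DESeq2. GC correction gave 4692 calls, 2376 higher and 2316 lower. The 6 libraries alone gave 6703 calls, 3831 higher and 2872 lower, with 1797 of at least 2-fold, 1597 of them higher, and 513 list members against 325. Leaving out 1 library gave 1707 to 3636 calls, 904 to 1652 higher and 803 to 1984 lower, with 552 to 928 at least 2-fold higher and 162 to 270 at least 2-fold lower. Same-numbered IFN and control libraries had correlations of -0.0514, 0.266 and 0.0869, and 1 of the 3 correlated best with its own number. The correlations were 0.0941, -0.302 and -0.468 in the DC pair and 0.294, 0.558 and 0.226 in the TEPA pair. Whether libraries with the same number share a batch is not labelled and was not tested. With the replicate number as a block, 4333 genes were called, 2373 higher and 1960 lower, 1165 of them at least 2-fold higher. The block with GC correction gave 5403 calls, 2770 higher and 2633 lower. In the 6 libraries alone the block gave 7252 calls, 4157 higher and 3095 lower, with 1820 of at least 2-fold, 1615 of them higher, and 539 list members. With DC, the 1439 calls became 3253 with GC correction and 3510 with the block added. With TEPA, the 2076 became 4180 and 4562. The difference between the effect without and with TEPA called 0 genes, against 6 with GC correction, 2 with the block and 14 with both, and that with DC called 2 in DESeq2. The cause of these changes was not tested.

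A few log2 fold changes changed sign with GC correction, given here with and then without the block added to the correction: CD276 -0.25 and -0.25, CYB561 -0.10 and -0.10, MYCN -0.33 and -0.34, IFNGR1 0.043 and 0.042, IFNGR2 -0.32 and -0.32, JAK1 0.0455 and 0.0456, MAVS -0.0703 and -0.0704, HAND2 -0.46 and -0.47, GATA3 -0.19 and -0.19, CDKN1A -0.043 and -0.0403, and SLC7A11 0.12 and 0.14. None of these is called in the corrected fit. Without a library, MYCN ranged from -0.11 to 0.37, IFNGR2 from -0.0017 to 0.0705 and PDIA3 from -0.0508 to 0.0702. Of the genes named and called, 30 lost the call under at least 1 alternative and 122 kept call and direction under each. The 3 libraries a group and the IFN library that stands lower limit what small changes can be shown.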
